A study of Mus musculus with 2 samples.

Results

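CD81+ trophocytes of the mouse colon were the 875 cells that carried this name in the authors' cell annotation, of 6018 annotated colon cells and 15377 annotated cells in the series. The series sequenced the RNA of single stromal cells, captured in droplets, from the colon and the small intestine of healthy, untreated mice, and each tissue gave 1 library. The tissue was stripped of epithelium and digested with collagenase and dispase, for 60 minutes in the colon and 45 minutes in the small intestine, and live cells lacking CD45 and CD326 (EpCAM) were sorted, which removes immune and epithelial cells. About 16000 cells per library were loaded on the 10x Genomics 3' kit, version 3.1. The labels give no number, sex, age or strain of the animals behind a library, and neither a genetic change nor an agent is named for either group. The 6 colon types described here are the trophocytes, 3631 CD81- fibroblasts (FBs), 1105 subepithelial myofibroblasts (SEMFs), 217 lymphatic endothelial cells (LECs), 125 smooth muscle cells (SMCs) and 53 blood endothelial cells (BECs, in which the capillary, arterial and venous names were pooled). Another 8 pericytes and 4 proliferating cells were too few to be compared.

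Trophocytes are fibroblasts that lie beneath the crypts of the gut, close to the submucosa and its vessels. They are known as a source of secreted antagonists of bone morphogenetic proteins (BMPs), of which Gremlin 1 is the best studied, and BMP antagonists and Wnt signals from such cells help to maintain the epithelial stem cells at the crypt base. CD81, a membrane protein of the tetraspanin family, is the surface marker by which they are separated from the other fibroblasts, and genes such as Pi16 link them to the fibroblasts found around vessels in many organs.

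Trophocytes made up 14.5% of the annotated colon cells (95% exact binomial interval 13.7 to 15.5) and 15.6% of the 5611 cells with a fibroblast name. Their UMIs, each of which marks 1 captured RNA molecule, summed to 6367442. The median trophocyte held 7186 UMIs, between extremes of 1502 and 24827, and 2511 detected genes. The medians were 6697 UMIs in CD81- FBs, 6345 in SEMFs, 5526 in SMCs, 4545 in LECs and 3821 in BECs. Levels below are in CPM, the UMIs of a gene for every 1000000 UMIs summed over the cells of that type. All intervals are 95% intervals that cover counting error only. With 1 library there was no replicate check, and the cell names come from the same cells, so every difference between types is a description of this library and no test is given. The 2 libraries shared 21 cell barcodes, 4 of them in colon trophocytes.

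The 6 trophocyte markers are described first. Because the names come from the same cells, the markers are no independent check of the name. Cd81 stood at 585 CPM in trophocytes (566 to 604), 37.96 in CD81- FBs, 9.14 in SEMFs, 7.77 in SMCs, 113 in LECs and 912 in BECs. Among the fibroblasts it thus separated the trophocytes, with a level 15.4 times that of CD81- FBs, but blood endothelial cells held more of it. Ackr4, an atypical receptor that takes up homing chemokines, reached 312 CPM (298 to 326) against 2.995 in CD81- FBs, 1.21 in SEMFs, 0.939 in LECs, 1.29 in SMCs and 0 in BECs. Pcolce2, an enhancer of procollagen processing, reached 729.6 CPM (709 to 751) against 16.4 in CD81- FBs, 2.02 in SEMFs, 1.88 in LECs and 0 in the other two types. Pi16, a peptidase inhibitor, stood at 291 CPM (278 to 305), with 8.34 in CD81- FBs and at most 0.939 elsewhere. Has1, a hyaluronan synthase, stood at 467 CPM (450.3 to 484), with 7.002 in CD81- FBs, 7.42 in BECs and lower levels in the rest. For these 4 genes no other type came near the trophocytes. In the mm10 build with GENCODE genes, Cd81 lies at chr7:143052739-143067934 (plus strand), Pcolce2 at chr9:95637601-95698096 (plus), Ackr4 at chr9:104084157-104126933 (minus), Has1 at chr17:17843323-17855205 (minus), Pi16 at chr17:29317680-29330593 (plus) and Grem1 at chr2:113746164-113758646 (minus), all protein-coding.

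Grem1, which encodes Gremlin 1, was the exception among the fibroblasts. Its level was 573 CPM in trophocytes (554 to 592) and 336 in CD81- FBs, a ratio of 1.71 or 0.77 (0.72 to 0.83) on the log2 scale, against 4.71 in SEMFs, 44.5 in BECs, 35.7 in LECs and 25.9 in SMCs. After every cell was thinned to 3000 UMIs, the share of cells with a Grem1 UMI was 37.7% in trophocytes, 38.7% in CD81- FBs and 1.23% in SEMFs. The shares of the first 2 types were close, while the summed level was lower in CD81- FBs. In the small intestine Grem1 stood at 1298 CPM in trophocytes and 168 in CD81- FBs.

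**Figure D1:**
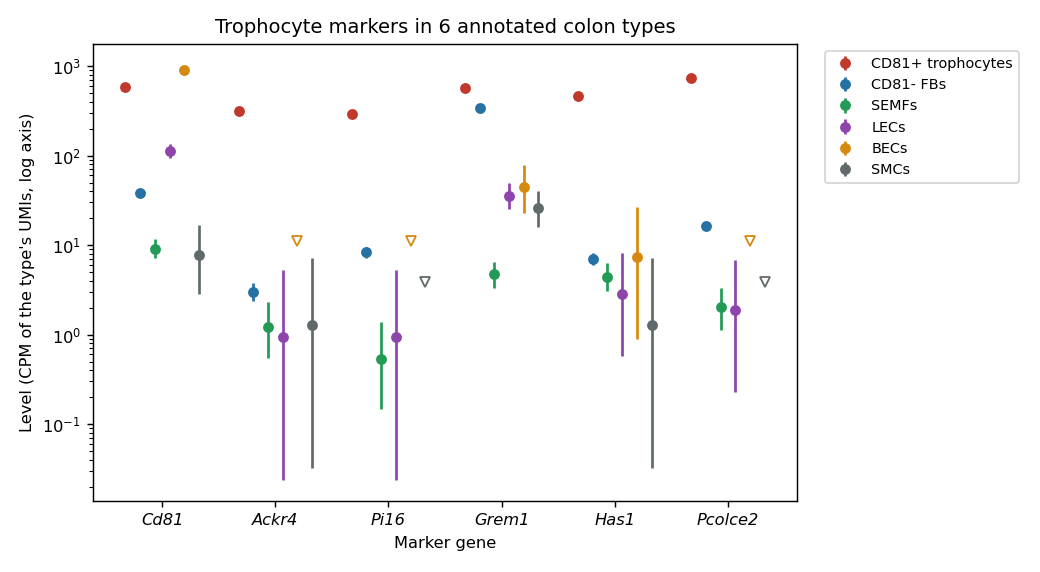
Levels of the 6 trophocyte markers in the 6 compared colon types, in CPM on a log axis, with 95% Poisson intervals as bars; an open triangle marks a type with no UMI, drawn at the level of 3 UMIs. Trophocytes are highest for every marker except Cd81, where BECs reach 912 CPM, and Grem1 is the marker with the smallest gap to CD81- FBs.

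Cell by cell, the markers went together with the name. Of the 817 trophocytes with at least 3000 UMIs, thinned to that number, 572 (70.01%) held at least 3 of the 6 markers and 2.45% held none. The same threshold was passed by 35 of 3463 CD81- FBs (1.01%), 1 of 1060 SEMFs, 1 of 200 LECs, 0 of 40 BECs, which allows a share of up to 7.5%, and 0 of 118 SMCs, which allows up to 2.54%. Shares of thinned trophocytes with a UMI were 79.6% for Cd81, 76.6% for Pcolce2, 48.2% for Ackr4, 33.05% for Has1 and 32.4% for Pi16. LECs, which are endothelial, held a Cd81 UMI in 32.5% of thinned cells, a Has1 UMI in 1% and a Grem1 UMI in 5%, and SEMFs held a Pcolce2 UMI in 0.755%, a Pi16 UMI in 0.283% and an Ackr4 UMI in 0.472%. Without thinning, the shares of trophocytes were 94.4% for Cd81, 86.2% for Pcolce2, 65.6% for Ackr4, 42.3% for Pi16, 43.4% for Grem1 and 40% for Has1.

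Endothelial and smooth muscle markers were far below their levels in the types they mark. Summed over 6 lymphatic markers the level was 30.8 CPM against 23263 in LECs, over 7 blood endothelial markers 52.1 against 8281 in BECs and 23.8 in CD81- FBs, and over 6 smooth muscle markers 96.6 against 15365 in SMCs. Of the blood endothelial list Pecam1, an adhesion molecule gene, was at least 2 times above both other fibroblast types, at 24.2 CPM against 6.84 in CD81- FBs and 3.23 in SEMFs. The epithelial genes Epcam and Krt8 were at 0, and 5 immune genes summed to 2.83 CPM. Of 4 mesothelial genes in the table Krt18, Krt19 and Upk1b were at 0, while the transcription factor gene Wt1 stood at 12.6 CPM (9.96 to 15.6) against no UMI in CD81- FBs, at least 103 times higher with a floor of 3 UMIs over that type, and 0.269 CPM in SEMFs. Enteric glia markers summed to 155 CPM against 105 in CD81- FBs and 165.5 in SEMFs, of which 154 CPM in trophocytes came from Cryab, a small heat shock protein gene, with Sox10 at 0. The part of such cells in the results was not tested. At least 3 markers of CD81- FBs were found in 49 of the 875 cells (5.6%) and of SEMFs in 20 (2.29%), at least 3 smooth muscle markers in 8, at least 3 pericyte markers in 13 and at least 3 lymphatic markers in 6. The CD81- FB list of 5 includes Ptn, which was itself at least 2 times above both other fibroblast types in trophocytes. The 49 cells may therefore include some counted through Ptn. The mucosal fibroblast gene Adamdec1 was seen in 279 trophocytes, and 88 cells, those with the most, held 83.4% of its 1204 UMIs.

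Of 12216 genes with enough UMIs to be compared, 148 (1.21%) were at least 2 times higher in trophocytes than in each of the other 5 types, with 10 CPM added to both sides, as in all counts of this kind below. The 20 genes with the largest ratio to the next highest type had levels from 47.3 to 1447 CPM and stood 5.39 to 104 times above that type, which was CD81- FBs for 14 of them. Ackr4, Pi16, Has1 and Pcolce2 were among the 20. The others are described below by what they encode, a grouping made after the genes were known.

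Several encode matrix or secreted proteins. Cilp, which encodes cartilage intermediate layer protein, stood at 630.4 CPM (611 to 650.2) against 39.00 in SEMFs and 32.5 in CD81- FBs. Slit3, a secreted guidance cue, was the most abundant of the 20, at 1447 CPM (1418 to 1477) against 268 in CD81- FBs and 75.2 in SEMFs. Adamtsl3, a matrix glycoprotein without protease activity, stood at 209 CPM against 11.7 in CD81- FBs. Lower in level but nearly limited to the trophocytes were Myoc (myocilin, 62.98 CPM against 0.648 in CD81- FBs), Angptl1 (an angiopoietin-like protein, 55.4 against 3.09 in SEMFs) and Gdf10 (a ligand of the TGF-beta superfamily, 67.5 against 0.939 in LECs). Gdf10 had no UMI in SEMFs, which makes the trophocyte level at least 167 times higher with a floor of 3 UMIs over the type. Sfrp4, a secreted Wnt-binding protein, stood at 49.3 CPM against 1.98 in CD81- FBs. Myoc, Angptl1, Gdf10 and Sfrp4 were seen in few cells, with a UMI in 8.69%, 11.8%, 13.2% and 8.45% of thinned trophocytes.

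Others encode signals, receptors and defence proteins. Stc2, the secreted glycoprotein stanniocalcin 2, reached 176 CPM against 22.02 in CD81- FBs, and the neuropeptide Y receptor gene Npy1r reached 68.8 against 2.59 in SMCs. The metabotropic glutamate receptor gene Grm7 stood at 53.4 CPM against 1.74 in CD81- FBs, and Brinp3 at 47.3 against 0.850. These receptors were seen in few cells, with a Npy1r UMI in 12.1% and a Grm7 UMI in 8.69% of thinned trophocytes. Brinp3 was also seen in few, with a UMI in 8.32% of thinned trophocytes. C3, the central complement component, stood at 1279.8 CPM (1252 to 1308) against 158 in CD81- FBs and 5.65 in SEMFs. The neutrophil chemokine gene Cxcl1 stood at 425 CPM against 35.98, and the interferon-inducible gene Ifi207 at 80.1 against 2.82 in LECs. Among enzymes, Inmt, a methyltransferase of amines, stood at 308 CPM against 4.65 in CD81- FBs. Gfpt2, which makes glucosamine 6-phosphate at the entry of the hexosamine pathway, stood at 661 CPM against 70.8.

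**Figure D2:**
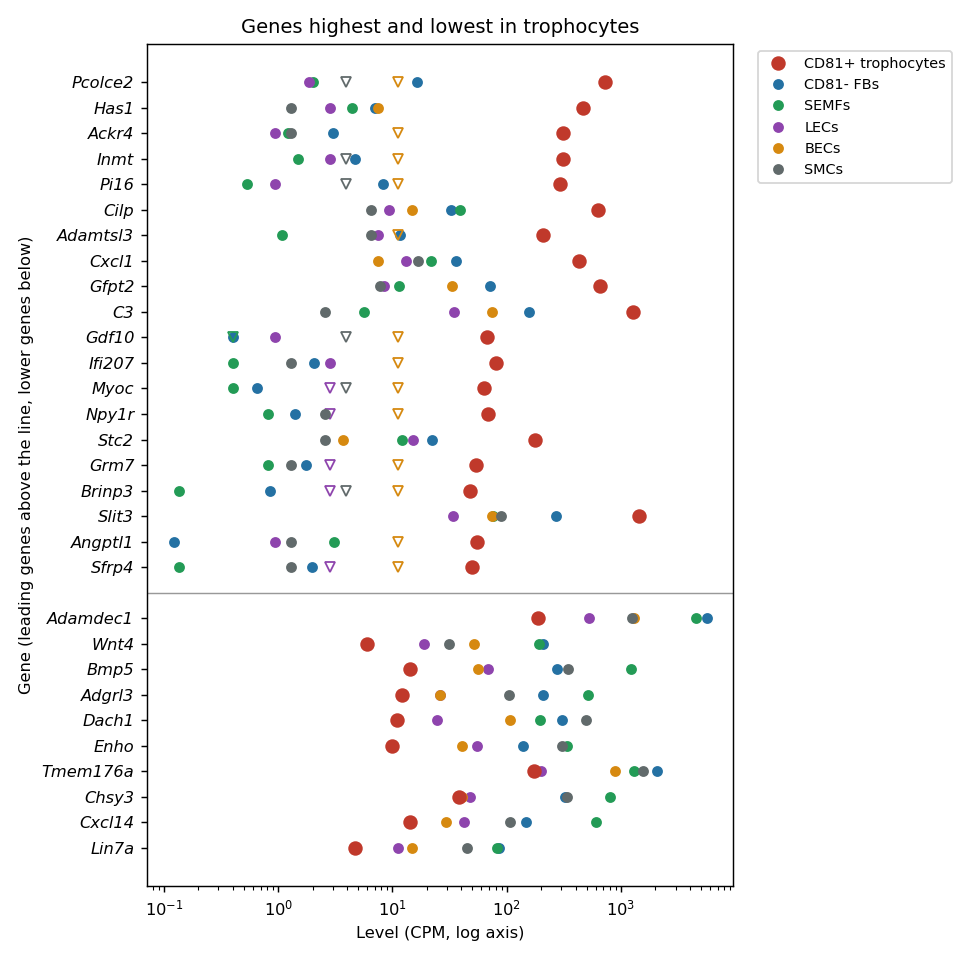
Levels in CPM (log axis) of the 20 genes with the largest ratio of trophocytes to the next type, above the line, and the 10 genes furthest below the other fibroblasts, below it; large red points are trophocytes and open triangles mark types with no UMI, drawn at the level of 3 UMIs. Adamdec1 stands at 5608 CPM in CD81- FBs and 189 in trophocytes.

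Other genes were lower in trophocytes than in the other fibroblasts. Of 11984 genes compared between the fibroblast types, 278 (2.32%) were at least 2 times above and 214 (1.79%) at most 0.5 times both CD81- FBs and SEMFs. These shares are the background for the counts per gene list below. Adamdec1, a secreted metalloprotease typical of mucosal fibroblasts, stood at 189 CPM in trophocytes (179 to 200.1) against 5608 in CD81- FBs and 4542 in SEMFs. Its log2 ratio to CD81- FBs was -4.89 (-4.97 to -4.81). LECs, BECs and SMCs held 522, 1287 and 1242 CPM of this transcript, all above the trophocytes. Signals to the epithelium followed: Wnt4 stood at 5.97 CPM against 208 and 190.0, Bmp5 at 14.3 against 276 and 1215, and the chemokine gene Cxcl14 at 14.3 against 146 and 600.1, in the order CD81- FBs and SEMFs. The adhesion receptor gene Adgrl3 (latrophilin 3), the transcription factor gene Dach1, Enho (the peptide hormone adropin), Tmem176a, the chondroitin synthase gene Chsy3 and the scaffold gene Lin7a completed the 10. Their trophocyte levels ran from 4.71 CPM for Lin7a to 174 for Tmem176a, and each was at most 0.116 times that of CD81- FBs.

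The BMP and Wnt genes divided between the fibroblast types. None of 7 measured BMP ligands was at least 2 times above both other fibroblast types and 3 were at most 0.5 times both: Bmp5, Bmp7 (1.57 CPM against 27.3 and 189) and Bmp4 (241 against 719 and 838). The median log2 ratio of the 7 to CD81- FBs was -0.81, beside -0.11 over all 11984 genes. Of 9 measured BMP antagonists, 8 had a ratio above 1 to CD81- FBs, with a median log2 ratio of 0.92, but only Chrdl1, chordin-like 1, was at least 2 times above both types, at 29.7 CPM against 1.25 and 0.941. Against SEMFs 5 of the 9 had a ratio above 1. The share of all genes with a ratio above 1 was not counted, and the median log2 ratio over all 11984 was -0.11 to CD81- FBs and -0.18 to SEMFs. Summed over the 13 listed antagonists, the level was 1948 CPM in trophocytes, 1192 in CD81- FBs and 2298 in SEMFs, the highest of the 3. Of 10 Wnt ligands and R-spondins, 2 were at most 0.5 times both types, Wnt4 and Wnt5b (30.5 CPM against 79.98 and 83.1), and none was 2 times above both. The median log2 ratio of the 10 was 0.14 to CD81- FBs and 2.60 to SEMFs. Their summed level went the other way, with 229 CPM in trophocytes, 473 in CD81- FBs and 712 in SEMFs. The hedgehog receptor and target gene Ptch1 stood at 84.2 CPM against 257 and 472.

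Growth factors and cytokines divided. Of 21 measured, 6 were at least 2 times above both other fibroblast types and 4 at most 0.5 times both. The higher ones included the interleukin gene Il6, at 83.4 CPM against 12.5 in CD81- FBs and 1.21 in SEMFs. The alarmin gene Il33 stood at 169 against 30.2 and 1.75, and Vegfd, a lymphatic growth factor, at 72.2 against 13.7 and 23.3. LECs held more Il33, at 216 CPM. The lower ones were Fgf10 (11.8 CPM against 146 and 63.1), Il34 (6.28 against 40.4 and 91.6) and the epidermal growth factor family genes Ereg (21.99 against 85.9 and 159.9) and Nrg1 (2.83 against 44.9 and 305).

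Among the chemokine genes, Cxcl1, Ccl2, Ccl7 and the scavenger Ackr4 were at least 2 times above both fibroblast types, 4 of the 14 measured. Ackr4 is a trophocyte marker, so its call is not independent of the cell names. Cxcl12 and Cxcl14 were at most 0.5 times both. Cxcl12, which retains and attracts leukocytes and progenitors, stood at 351 CPM in trophocytes, 1671 in CD81- FBs, 2412 in SEMFs and 1735 in BECs. Of 14 measured complement genes, 4 were at least 2 times above both types and none at most 0.5 times both. Besides C3 the 4 included C7 (168 CPM against 26.5 and 1.34) and Cfb, factor B (58.9 against 22.2 and 1.34). Of the 15 listed, 8 had their highest level of the 6 types in trophocytes, and how many of all genes did so was not counted.

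The matrix genes divided as well. Of 20 measured collagen chains 2 were at least 2 times above both types and 3 at most 0.5 times both, with a median log2 ratio to CD81- FBs of -0.41. Col14a1, a fibril-associated collagen, stood at 1207 CPM against 447 and 14.3, and Col8a1, a network collagen, at 346 against 64.3 and 3.36. Col12a1 went the other way, with 89.2 CPM against 398 and 562. Of 18 elastic fibre and microfibril genes, Mfap5 (774 CPM against 254 and 7.13), Fbln2 (712 against 346 and 59.4) and Emilin2 (86.4 against 18.8 and 1.61) were at least 2 times above both types, while Emilin1 was at most 0.5 times both, at 71.6 against 169 and 240.2. SMCs held Mfap5 at 627 CPM, close to the trophocytes. The proteoglycan genes Dcn (decorin, 19280.1 CPM against 8399.8 and 1314) and Lum (lumican, 1619 against 796 and 540.3) were the 2 of 8 small leucine-rich proteoglycans at least 2 times above both types.

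Adventitial fibroblast genes, a list of 15 that are known from fibroblasts around vessels, were at least 2 times above both types for 9 and at most 0.5 times both for none. Igfbp6 stood at 1396 CPM against 364 in CD81- FBs and 123 in SEMFs, and Dpt, dermatopontin, at 2412 against 1070.0 and 728. The list's median log2 ratio was 1.17 to CD81- FBs and 3.50 to SEMFs, beside -0.11 and -0.18 over all genes. It shares Pi16 with the markers, and the list was chosen with earlier results of these data known. In the small intestine 2 of 14 measured members were at least 2 times above both types, and 199 of 11434 genes (1.74%) were.

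Transcription factors known from gut stroma included 7 of 29 at least 2 times above both types and 4 at most 0.5 times both. Ebf1, a zinc-finger factor best known from B cell and adipose development, stood at 1805 CPM in trophocytes (1772 to 1838) against 22.9 in CD81- FBs, 13.04 in SEMFs and 7.77 in SMCs. Endothelial cells held it as well, with 442 CPM in LECs and 860.3 in BECs. An Ebf1 UMI was found in 90.6% of thinned trophocytes and 4.65% of CD81- FBs, a wider gap than that of Cd81 at 79.6% and 8.43%. Foxp2 (275 CPM against 63.99 and 1.75), Meis2 (449 against 132 and 99.5) and Twist1 (53.9 against 19.2 and 11.3) were higher too. Tcf21 (226 CPM against 1240.4 and 471), Nkx2-3, a gut mesenchyme homeobox gene (106 against 230.3 and 427), Foxf2 (9.11 against 39.3 and 114) and Sox6 (8.01 against 26.5 and 1462) were lower.

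Because the Ebf1 level set the trophocytes apart from the other fibroblasts, the promoters of the markers and leading genes were searched for CCCNNGGG, the core of the palindrome bound by the EBF family. The 250 bases before the RefSeq start (GRCm38.p6) were read, and as the core is its own reverse complement a search of 1 strand covers both. It was present for 7 of 21 genes with an entry (Adamtsl3, Cd81, Gdf10, Grem1, Grm7, Pcolce2 and Slit3) and for 13.4% of 27025 genes in the table. Among the 6 markers, the promoters with a match, those of Cd81, Pcolce2 and Grem1, held 65.6%, 61.2% and 72% G and C. Those without one, of Ackr4, Pi16 and Has1, held 45.2%, 52.4% and 58%, and the median of all promoters was 52.4%. The part of base composition in the matches was not tested. The promoters of 3 markers with a match and of Ackr4, which has none, are shown 5′ to 3′ on the strand of the gene, with CCCNNGGG in capitals; the first lies at chr7:143052500-143052749 (plus strand), the second at chr9:95637378-95637627 (plus), the third at chr2:113758649-113758898 (minus) and the fourth at chr9:104126644-104126893 (minus).
Cd81: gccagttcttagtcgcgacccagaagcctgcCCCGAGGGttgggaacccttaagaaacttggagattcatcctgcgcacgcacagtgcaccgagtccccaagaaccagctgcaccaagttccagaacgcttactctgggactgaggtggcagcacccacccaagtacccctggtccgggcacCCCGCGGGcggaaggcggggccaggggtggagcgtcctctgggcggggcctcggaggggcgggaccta
Pcolce2: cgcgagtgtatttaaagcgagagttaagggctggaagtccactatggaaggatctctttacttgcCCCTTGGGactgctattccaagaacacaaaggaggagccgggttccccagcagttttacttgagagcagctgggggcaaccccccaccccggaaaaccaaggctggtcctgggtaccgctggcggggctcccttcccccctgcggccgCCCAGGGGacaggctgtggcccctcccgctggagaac
Grem1: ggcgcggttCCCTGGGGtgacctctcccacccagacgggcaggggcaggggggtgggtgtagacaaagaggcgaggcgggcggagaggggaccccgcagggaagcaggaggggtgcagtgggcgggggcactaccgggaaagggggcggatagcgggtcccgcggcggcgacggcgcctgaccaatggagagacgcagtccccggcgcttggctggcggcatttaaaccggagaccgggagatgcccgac
Ackr4: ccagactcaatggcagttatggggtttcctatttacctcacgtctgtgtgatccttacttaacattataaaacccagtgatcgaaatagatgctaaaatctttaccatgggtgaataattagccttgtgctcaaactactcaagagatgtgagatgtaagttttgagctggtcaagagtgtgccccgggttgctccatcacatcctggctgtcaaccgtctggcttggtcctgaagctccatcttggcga
Cd81 and Pcolce2 held the core 2 times each and Grem1 once in these windows. Such a match is a run of letters, and these files hold no measurement of binding.

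Of 10 measured hyaluronan genes, 3 were at least 2 times above both types and none at most 0.5 times both. The median log2 ratio of the list to CD81- FBs was 0.13, and -0.38 in the small intestine, and Cemip, a hyaluronan-degrading gene, was at 0 in the colon trophocytes. The 3 were Has1, Tnfaip6, which encodes a hyaluronan-binding protein induced in inflammation (512 CPM against 152 and 28.9), and Ugdh, the enzyme that makes UDP-glucuronate (414 against 150.0 and 65.9). Gfpt2, named above, feeds the pathway to the second precursor, UDP-N-acetylglucosamine. Has1 is a trophocyte marker, so its call is not independent of the cell names.

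Immediate early genes, which respond within minutes to stimulation or to tissue digestion, were high in the trophocytes. Of 22 measured, 11 were at least 2 times above both other fibroblast types and none at most 0.5 times both, with a median log2 ratio of 1.35 to CD81- FBs. Their summed level was 23951 CPM in trophocytes, 9933 in CD81- FBs, 9419 in SEMFs, 7007 in LECs, 14214 in SMCs and 21679 in BECs. Fos stood at 4054 CPM against 1447 and 1257, and Egr1 at 3386 against 826 and 625. Heat shock genes summed to 13558 CPM against 7167 in CD81- FBs, 7325 in SEMFs, 7743 in LECs, 9991 in SMCs and 15909 in BECs, with 4 of 13 at least 2 times above both types, among them Dnajb1 (659.9 against 144 and 142). Mitochondrially encoded transcripts were the reverse, with a median of 1.80% of a cell's UMIs in trophocytes against 2.95% in CD81- FBs and 3.48% in SEMFs. In the small intestine, digested for a shorter time, 11 of 21 immediate early genes were at least 2 times above both types as well, with a median log2 ratio of 1.52. Cxcl1, Ccl2, Il6 and Has1 are also known to be inducible, and the part of the immediate early response in their levels was not tested.

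**Figure D3:**
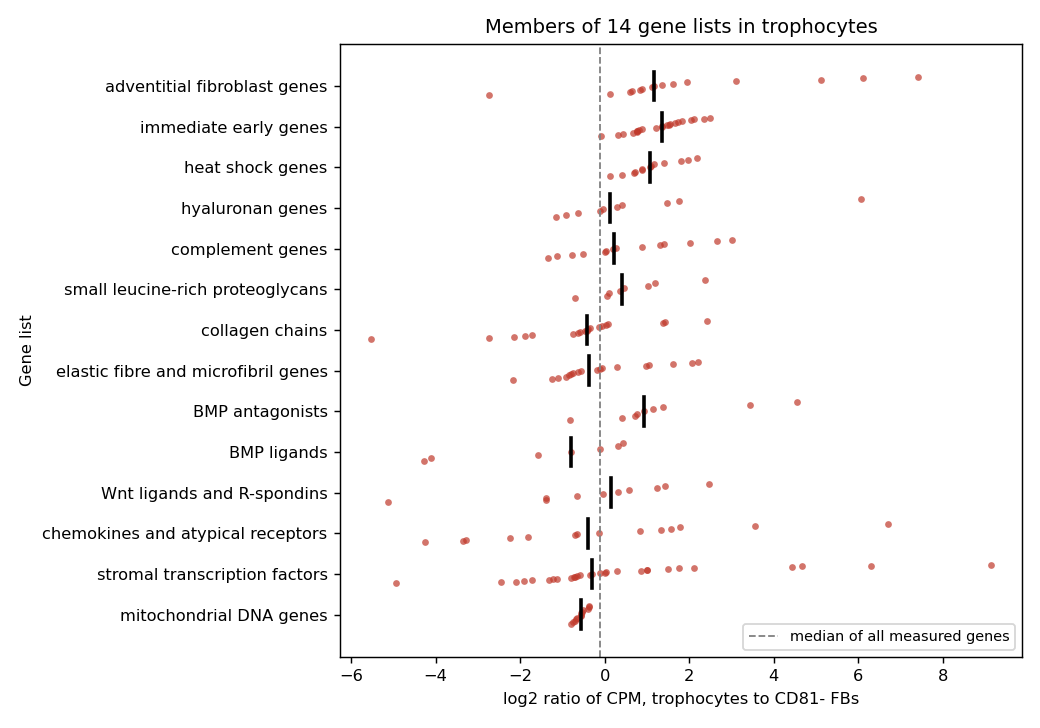
Log2 ratio of trophocytes to CD81- FBs for the measured members of 14 gene lists; each point is a gene, black bars are list medians and the dashed line is the median of all genes, -0.11. Immediate early genes lie almost wholly to the right (median 1.35), mitochondrial transcripts to the left (-0.57), and collagens and transcription factors on both sides.

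Trophocytes were not uniform. With each cell thinned to 3000 UMIs, the variance beyond counting noise, relative to the squared mean (excess variance), had a median of 0.30 over 2157 genes. Cd81 lay below that, at 0.16, and Pcolce2 close to it, at 0.38, so both varied little beyond counting noise. Has1, Pi16 and Grem1 reached 4.48, 3.36 and 3.22, and Ackr4 1.01. For Has1, the 88 cells with the most held 71.0% of the 2973 UMIs, and for Cd81 24.7% of 3725.

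Other genes had larger excess variances, and some of them were carried by few cells. Ccl2 had the largest excess variance, 35.9, with 142 cells holding its 1023 UMIs and 212 of these in 1 cell. Ptn, which encodes the growth factor pleiotrophin, followed at 24.4: all 451 UMIs lay in 79 cells, while the level of Ptn was 0.324 CPM in CD81- FBs and 130.5 in LECs. The next genes were Aak1, Adamdec1, Apod, Iigp1, Fibin, BC028777, Igfbp3 and Igfbp5. Of these, Aak1 was seen in 295 trophocytes, Adamdec1 in 279 and Apod in 256. For Aak1, 1 cell held 40 of the 471 UMIs. Apod, a lipid carrier, was higher in trophocytes (92.8 CPM against 15.3 in CD81- FBs), and the growth factor binding protein genes Igfbp3 and Igfbp5 lower (84.02 against 1749 and 167 against 820.4).

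Pi16 and Grem1 were seldom found in the same trophocyte. Of the 817 thinned cells 32.4% held a Pi16 UMI and 37.7% a Grem1 UMI, and 47 cells held both, or 5.75% (4.26 to 7.58), where the product of the 2 shares is 12.2%. The ratio of observed to product was 0.47. It was 0.63 among cells with Xist and no Y-linked UMI and 0.32 among cells with Y-linked UMIs and no Xist. Pi16 and Has1 were found together more often than the product, in 14.7% (12.3 to 17.3) against 10.7%, and Ackr4 and Grem1 in 21.3% (18.5 to 24.3) against 18.2%. Pairs with Cd81 had ratios from 1.00 to 1.02.

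**Figure D4:**
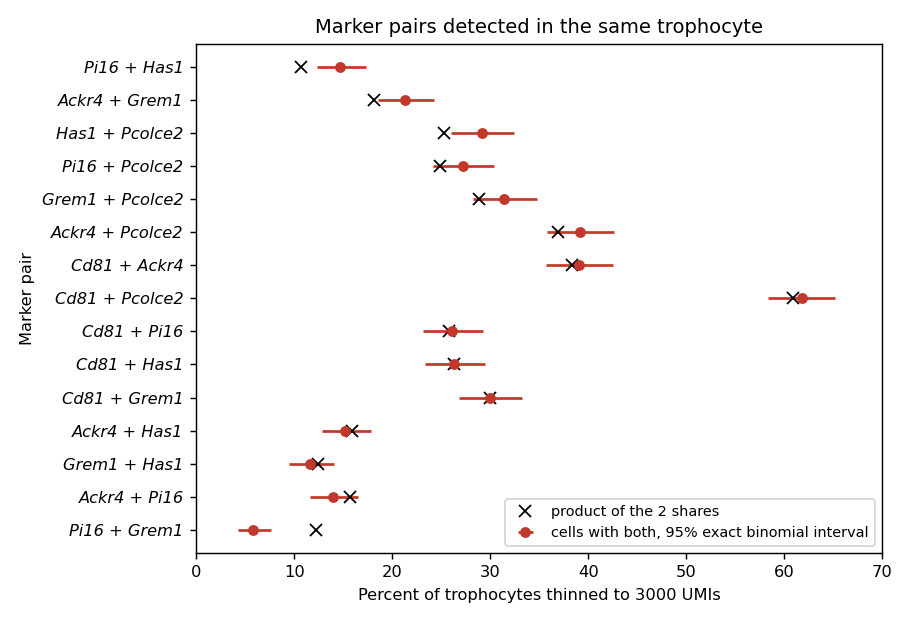
Percent of thinned trophocytes with UMIs of both genes for the 15 pairs of the 6 markers (points, with 95% exact binomial intervals) and the product of the 2 single shares (crosses). Pi16 with Grem1, at 5.75% against 12.2%, is the pair furthest below its product, and Pi16 with Has1, at 14.7% against 10.7%, the furthest above relative to it.

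To describe these differences, trophocytes with and without a UMI of a variable gene were compared, a step added after the shares had been seen. The 370 cells with Pi16 and the 505 without had medians of 7778 and 6776 UMIs, and levels were again CPM of the summed UMIs. Of 4402 genes compared, 22 (0.5%) were at least 2 times higher with Pi16 and 40 (0.909%) at most 0.5 times, after adding 10 CPM. Cells with Pi16 held more Npy1r (128 and 17.9), Cmah (115 and 21.7), the matrix protease gene Adamts5 (374 and 137) and the microfibril gene Mfap5 (1112 and 481), each given as CPM with and without Pi16. The log2 ratio of Npy1r was 2.83 (2.44 to 3.25). They held less Grem1 (229 and 871), Ptn (21.6 and 113) and Kitl, the ligand of the Kit receptor (25.7 and 123). Cd81 was alike in both, at 605 and 568 CPM. All of these differences other than that of Cd81 had the same direction in Xist-only and in Y-linked-only cells, as had those named below for Grem1, Has1 and Ptn.

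Cells with Grem1, 380 against 495 without (medians of 7439.5 and 6935 UMIs), gave another profile, with 27 genes (0.613%) at least 2 times higher and 18 (0.409%) at most 0.5 times. They held more Brinp3 (98.4 and 6.23 CPM with and without Grem1), Angptl1 (102 and 18.1), the mechanosensitive channel gene Piezo2 (130.4 and 26.6), the lipoprotein gene Apoe (355 and 86.1), the hedgehog antagonist gene Hhip (168 and 37.95), complement C4b (345 and 94.9) and the leptin receptor gene Lepr (430.1 and 122). Pi16 (109.6 and 437), Npy1r (28.6 and 101), Ccl2 (61.7 and 240.2) and Aldh1a3, a retinoic acid synthesis gene (14.5 and 64.3), were lower. For Brinp3 the log2 ratio was 3.98 (3.35 to 4.68). Npy1r was thus higher with Pi16 and lower with Grem1, and Brinp3 and Angptl1, among the 20 leading genes of the whole type, belonged to the cells with Grem1. Summed immediate early levels differed little, with 25011 CPM with Grem1 and 23099 without. Heat shock genes summed to 15541 CPM with Grem1 and 11966 without, and their part in the split was not tested.

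Cells with Has1 held more of the genes that supply hyaluronan synthesis. In the 350 cells with Has1 and the 525 without, Ugdh stood at 663 and 208 CPM, Gfpt2 at 1032 and 357, Uap1, which makes UDP-N-acetylglucosamine, at 341 and 118, and Tnfaip6 at 814 and 264. The log2 ratio of Ugdh was 1.67 (1.55 to 1.80). In all, 41 genes (0.931%) were at least 2 times higher with Has1 and 27 (0.613%) at most 0.5 times. The medians were 8170 and 6679 UMIs per cell. With the cells of both sides thinned, Ugdh stood at 564 and 218 CPM, while the sides themselves were set on unthinned cells. Rgs5, a regulator of G protein signalling known from pericytes (3.83 and 65.9), and Slit2 (17.7 and 81.03) were lower with Has1. The supply genes were also higher with Pi16, Ugdh at 558 and 288 CPM, Uap1 at 313 and 137 and Gfpt2 at 846 and 502. They were lower with Grem1, Ugdh at 320.4 and 488 CPM, and with Ptn, at 172 and 437. Immediate early genes moved with the Has1 split, at 29523 CPM with Has1 and 19364 without, and so did the metallothionein gene Mt2 (403 and 145). Their part in the levels of the hyaluronan genes was not tested.

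The 79 cells with Ptn differed from the other 796 in more genes, as 83 of 4402 (1.89%) were at least 2 times higher and 147 (3.34%) at most 0.5 times, although so few cells also give more counting error. They held more Rgs5 (282 and 13.97 CPM with and without Ptn), the potassium channel gene Kcnn3 (431 and 52.2), Kitl (373 and 48.97), Fibin (311 and 38.97) and Tnc, tenascin C (484 and 86.05). Rgs5 had a log2 ratio of 4.33 (3.94 to 4.74). Has1 (63.4 and 506), Grem1 (98.6 and 619), complement C7 (21.1 and 182) and Npy1r (1.76 and 75.4) were lower. Acta2 stood at 227 and 21.4 CPM over all cells but at 44.4 and 26.5 in Xist-only and 41.9 and 11.7 in Y-linked-only cells. Of the other markers, Pcolce2 (380.1 and 764), Ackr4 (167 and 326) and Pi16 (89.8 and 311) were lower too, and Cd81 stood at 524 and 591 CPM. Immediate early genes summed to 12349 CPM with Ptn and 25088 without, and mitochondrial transcripts to 29027 and 18192, and their part in the split was not tested. In the 142 cells with Ccl2, 5 genes (0.114%) were at least 2 times higher than in cells without it and 3 (0.0682%) at most 0.5 times.

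**Figure D5:**
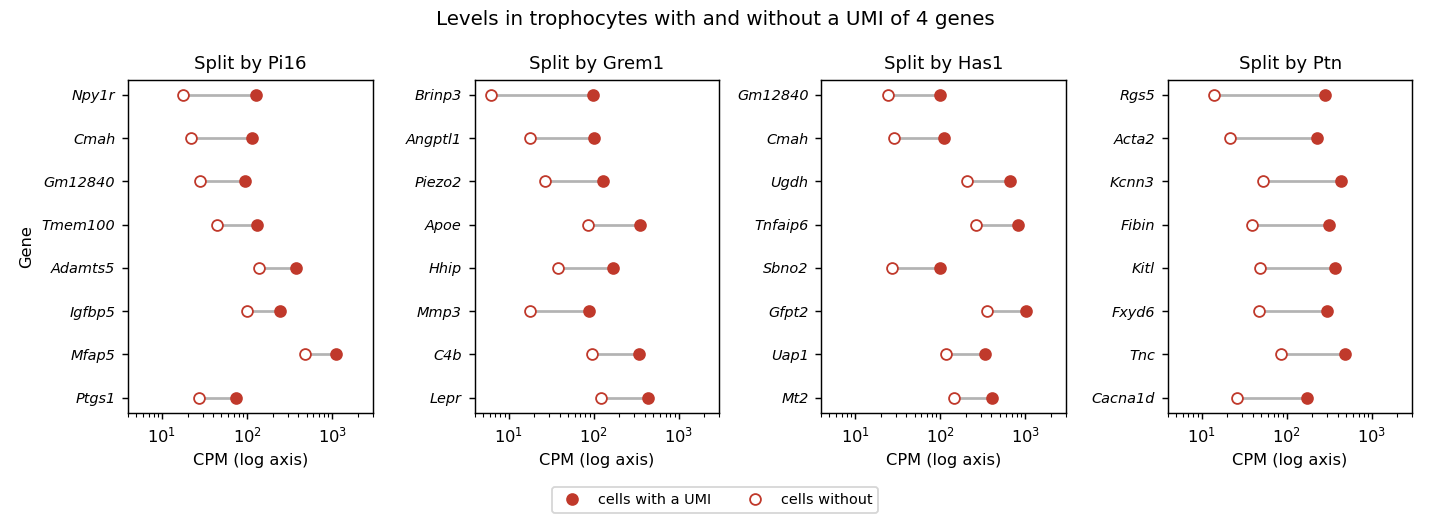
CPM (log axis) in trophocytes with (filled) and without (open) a UMI of Pi16, Grem1, Has1 or Ptn, for the 8 genes furthest above in each split. Npy1r leads for Pi16, Brinp3 for Grem1 and Rgs5 for Ptn, and the hyaluronan supply genes Ugdh, Gfpt2 and Uap1 appear with Has1.

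Xist and Y-linked UMIs divided the colon cells, as they do where a library pools animals of both sexes, although the labels do not mention pooling. Of the 875 trophocytes 406 had Xist and no Y-linked UMI, 274 Y-linked UMIs and no Xist, 21 both and 174 neither. Trophocytes were 15.04% (13.7 to 16.4) of the Xist-only and 15.6% (13.98 to 17.4) of the Y-linked-only colon cells, a difference within counting error. Of 6216 genes 19 (0.306%) were at least 2 times higher in Y-linked-only trophocytes and 16 (0.257%) at most 0.5 times, and sex and animal cannot be told apart here. C7 stood at 305 CPM in Y-linked-only and 29.9 in Xist-only cells, Stc2 at 310.1 and 61.1, and the opioid peptide gene Penk at 295 and 73.9. The log2 ratio of C7 between them was 3.35 (3.03 to 3.68). Ackr4 stood at 450.1 and 206, while Cd81 was nearly equal at 592 and 560.5. Higher in Xist-only cells were Sfrp4 (81.6 CPM against 13.9), Adamdec1 (276 against 91.7) and the phosphodiesterase gene Pde10a (157 against 66.4). Of the 20 leading genes, 19 were at least 2 times above both other fibroblast types within each subset, Sfrp4 being the exception. All 10 of the lower genes kept their call in each. Both sets of genes were chosen over all 875 cells, which include the 2 subsets, so the kept calls are no independent check.

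The leading genes were compared next with the 1913 trophocytes of the small intestine, each within its own library. Of the 20 leading genes, 14 were at least 2 times above both other fibroblast types there, and 8 of the 10 lower genes at most 0.5 times both, as were 200 of 11434 genes (1.75%). Across all genes listed for both libraries, 118 were above both types in each, 44.0% of the 268 colon genes and 59.3% of the 199 small intestinal genes. Ebf1 stood at 1074 CPM in small intestinal trophocytes against 135 in CD81- FBs and 63.5 in SEMFs. The 6 leading genes that lost the call were Myoc (3.99 CPM in small intestinal trophocytes), Sfrp4 (5.39), Grm7 (10.5 against 27.7 in CD81- FBs), Brinp3 (156 against 138 in SEMFs), Angptl1 (369.6 against 274 in SEMFs) and Slit3 (2178 against 1129.8 in CD81- FBs). Between the trophocytes of the 2 libraries, 188 of 10454 genes (1.8%) were at least 2 times higher in the colon and 389 (3.72%) at most 0.5 times. Has1 and Pi16 were higher in the colon (467 against 284 CPM, and 291 against 163), Ackr4 lower (312 against 617), and Cd81 near equal (585 against 560.4). With 1 library per tissue and different digestion times, tissue, digestion and animal cannot be told apart in these values.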

How the data were processed

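The authors deposited, per tissue, UMI counts, not normalized, for every gene and cell, natural log values (the natural log of 1 plus the UMIs per 10000 of the cell, which all deposited values matched within 6.2e-15), and a cell type name per cell. The submitters' processing notes name Cell Ranger 7.1.0, Seurat 4 and the mm10 build. How cells were named, and whether doublets were removed, is not given in the sources used here.

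Here the counts were summed per type with Python 3.11.15, numpy 2.4.6, scipy 1.17.1 and pandas 2.3.3, and the figures were drawn with matplotlib 3.10.9. Levels (CPM) carry exact Poisson, shares exact Clopper-Pearson and ratios exact conditional binomial 95% intervals. The ratio intervals were tested on simulated Poisson counts, which hold no variation between cells, so that test covers counting error only. A count of 0 was given a floor of 3 UMIs. Types needed at least 50 cells, and genes at least 100 UMIs in the types compared. Named were the 20 genes with the largest log2 ratio to the next type and the 10 lowest against CD81- FBs and SEMFs, after adding 10 CPM and with detection in at least 10% of the cells of the higher type, leaving out Xist, Tsix, Y-linked, mitochondrially encoded, ribosomal protein, immunoglobulin and haemoglobin genes. Further named were the 6 markers, the 10 most variable genes (thinned mean of at least 0.2), 5 genes each way between Xist-only and Y-linked-only cells, and up to 4 each way per list. No doublets were removed, and an alternative left out the 6% of cells with the most UMIs per type. The members and gene lists were chosen with earlier results of these data known. Of the colon symbols, 98.7% were in the GENCODE names. Promoters are from RefSeq.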

Additional observations from a re-analysis of the deposited data

Results flagged for a closer look

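A few genes stood above a fibroblast type in the trophocytes of 1 library and below it in those of the other. Each tissue had 1 library, so these differences were not tested. Grm7, one of the 20 leading genes, had a log2 ratio to CD81- FBs of 4.94 in the colon and -1.40 in the small intestine. Fibin had a log2 ratio to CD81- FBs of 1.59 in the colon and -3.54 in the small intestine, and the basement membrane collagen gene Col4a6 went the other way, with -1.73 in the colon and 2.53 in the small intestine. Against SEMFs, the chemokine gene Ccl7 had a log2 ratio of 1.69 in the colon and -3.27 in the small intestine, and the phosphodiesterase gene Pde10a 1.55 and -2.28.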

How the results depend on the processing

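The 148 genes above every other type became 24 with means of the deposited natural log values, 64 with 50 CPM added and 34 at a threshold of 4 times. The 214 genes below both other fibroblast types became 30, 64 and 41 in the same order, and 587 with 1 CPM added. The trophocyte share went from 14.54% to 15.65% with Y-linked-only cells. The other alternatives kept both counts within 1.5 times. Of the log2 ratios of named genes, 1 reversed: Iigp1 to CD81- FBs went from -0.27 to 0.49 (10 CPM added) with Y-linked-only cells. A further 513 values of these ratios moved by more than the counting error of the main value and 506 did not. Among the 513 were all 102 values with the natural log means, which are differences of natural logs set beside log2 ratios. They also included 66 of 102 values with Xist-only cells, 71 with Y-linked-only cells, 96 with 50 CPM added and 66 with 1 CPM added. Of the list medians 131 moved by more than the typical counting error of a member and 289 did not. With the natural log means, again on that other scale, 50 moved and 10 did not. Of the excess variances 14 changed by more than 1.5 times and 34 did not. No paired analysis was possible because each tissue has 1 library. Depth limits genes below about 10 CPM in BECs and SMCs, and doublets, free RNA and differences between animals are outside every interval.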

Other observations

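Among other gene families, Cd81 was alone of 19 measured tetraspanins in being at least 2 times above both other fibroblast types, and its relative Cd82 was alone in being at most 0.5 times both, at 13.2 CPM in trophocytes, 37.7 in CD81- FBs and 79.1 in SEMFs. Of 28 measured signal receptors, none was at least 2 times above both types. Besides Ptch1, the interleukin 1 receptor gene Il1r1 (27.3 CPM against 104 and 114) and Lifr, the receptor of leukemia inhibitory factor (12.9 against 51.9 and 48.9), were at most 0.5 times both. BECs held Lifr at 234 CPM. Of 11 peptidase inhibitors, Pi16 and Serpinf1, which encodes pigment epithelium-derived factor (224 CPM against 82.6 and 3.90), were at least 2 times above both types. Of 15 genes of collagen processing, Pcolce2 alone was. Cd81, Pi16 and Pcolce2 are trophocyte markers, and as the names come from the same cells, their calls are no independent result about these families. Over all 11984 genes, 2.32% were at least 2 times above both types and 1.79% at most 0.5 times both. At those shares few or no calls are expected in lists this short.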
